A study of Mus musculus with 6 samples.

Results

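Genes of cholesterol synthesis, sterol transport and SREBP2 control were followed in mouse bone marrow–derived macrophages (BMDMs) exposed to heme. The 29 genes were taken by name along the pathway, from the first thiolase to the last reductase, with the regulators of SREBP2 and 3 genes of sterol movement and storage and not by a threshold on any measured value. All 29 were found among the 25700 genes of the count files, and all 29 passed the filter on low counts that left 12433 genes for testing. Marrow of C57BL/6J mice aged 8 to 10 weeks was grown in M-CSF at 100 ng/ml, and heme-albumin at 300 μM, or albumin alone as the control, was added on day 3. Libraries held 27201038 to 32994595 counts each. RNA was taken on day 7 from 3 control and 3 heme-treated cultures, so both groups carried M-CSF and albumin. The study describes each library as the macrophages of 1 mouse. Whether control and heme cultures with the same number came from the same mouse is not stated, and they were compared unpaired.

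Cholesterol is built from acetyl-CoA by way of mevalonate, farnesyl diphosphate, squalene and lanosterol, by enzymes in the cytosol, peroxisome or endoplasmic reticulum. The genes of these enzymes are switched on by SREBP2, a transcription factor made as a membrane-bound precursor. In sterol-poor cells the escort protein SCAP carries the precursor to the Golgi apparatus, where the proteases S1P and S2P release its active part, while in sterol-rich cells INSIG proteins hold SCAP and the precursor back. Macrophages also receive cholesterol from engulfed cells and lipoproteins, which leaves the lysosome through NPC1 and is stored as ester by SOAT1.

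SREBP2 is known to act at sterol regulatory elements, usually beside CCAAT boxes bound by NF-Y and GC boxes bound by Sp1, so the sequence before the start of 6 of the genes is shown. Hmgcs1 and Mvk were taken from the enzymes whose mRNA was lower after heme, Hsd17b7 from those whose mRNA did not pass the test, and Srebf2, Insig1 and Insig2 from the regulators. Hmgcs1 is not typical of the lowered enzymes. Its full sterol regulatory element core was found in no other of the 24 genes with a sequence window. Capitals mark, on either strand, the sterol regulatory element core TCACNCCAC or its shorter form TCACNCCA, which lies within it, the CCAAT box CCAAT and the GC box GGGCGG. The sequences are RefSeq's on GRCm38.p6, written 5′ to 3′ on the gene's strand, and end before the gene start given by RefSeq or GENCODE, whichever lies further upstream. Insig2 has several RefSeq starts, and the stretch shown lies before the one at the GENCODE gene start. Which start the cells used was not tested.
Hmgcs1, chr13:119690101-119690350, plus strand: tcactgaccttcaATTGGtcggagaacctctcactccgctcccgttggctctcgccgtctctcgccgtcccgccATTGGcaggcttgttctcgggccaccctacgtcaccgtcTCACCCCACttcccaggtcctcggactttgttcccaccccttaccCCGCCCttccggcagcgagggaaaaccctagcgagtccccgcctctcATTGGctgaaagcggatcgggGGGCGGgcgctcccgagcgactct
Mvk, chr5:114444019-114444268, plus strand: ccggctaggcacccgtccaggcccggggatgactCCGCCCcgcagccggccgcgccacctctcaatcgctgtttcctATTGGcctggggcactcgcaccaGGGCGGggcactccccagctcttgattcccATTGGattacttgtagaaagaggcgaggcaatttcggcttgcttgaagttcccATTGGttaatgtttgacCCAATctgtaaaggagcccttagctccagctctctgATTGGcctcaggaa
Hsd17b7, chr1:169969242-169969455, minus strand: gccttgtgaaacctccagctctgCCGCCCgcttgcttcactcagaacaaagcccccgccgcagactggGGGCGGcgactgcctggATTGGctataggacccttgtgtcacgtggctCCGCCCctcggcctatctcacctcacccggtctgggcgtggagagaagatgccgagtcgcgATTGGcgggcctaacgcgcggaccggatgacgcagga
Srebf2, chr15:82147019-82147180, plus strand: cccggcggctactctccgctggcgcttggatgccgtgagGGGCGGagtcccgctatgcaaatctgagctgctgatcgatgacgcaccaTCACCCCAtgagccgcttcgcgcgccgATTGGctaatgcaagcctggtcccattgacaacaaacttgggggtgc
Insig1, chr5:28071162-28071362, plus strand: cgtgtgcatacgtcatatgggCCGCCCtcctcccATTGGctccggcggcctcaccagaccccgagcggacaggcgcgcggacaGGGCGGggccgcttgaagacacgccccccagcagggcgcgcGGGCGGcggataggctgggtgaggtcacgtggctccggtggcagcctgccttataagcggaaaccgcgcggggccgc
Insig2, chr1:121332590-121332839, minus strand: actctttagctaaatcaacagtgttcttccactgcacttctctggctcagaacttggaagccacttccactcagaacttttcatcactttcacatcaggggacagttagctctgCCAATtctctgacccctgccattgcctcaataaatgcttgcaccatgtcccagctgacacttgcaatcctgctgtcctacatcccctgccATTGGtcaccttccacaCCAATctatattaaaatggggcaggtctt

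RefSeq windows of 300 bases (250 before and 50 after the start) were at hand for 24 of the 29 genes. Some genes had several starts (30 windows in all), and a match in any window of a gene counted. Fdps, Fdft1, Sqle, Stard4 and Npc1 had no entry. A CCAAT box stood in the windows of 20 of the 24 genes (83.3%), against 43.1% of the 9534 tested genes with an entry. Those without one were Acat2, Scap, Mbtps1 and Mbtps2. A GC box stood in 21 of the 24 (87.5%), against 68.2% of the tested genes. In Insig2 it stood only in windows of starts other than the one printed. The core TCACNCCAC occurred only in Hmgcs1 among the 24 (4.17%), 137 bases before its start, against 1.44% of the tested genes. Its shorter form, added after the Srebf2 window had been read, occurred in 3 of the 24 (12.5%), against 4.50%. The 3 were Hmgcs1, Msmo1 and Srebf2, so the share counts the gene that prompted the search and is raised by that choice. In Srebf2 the shorter form lay 162 bases before the RefSeq start, which is downstream of the GENCODE start where the printed stretch ends. The 16 genes with an entry whose mRNA was lower after heme and the 8 others held CCAAT boxes in 87.5% and 75.0% of cases. These matches describe letters in a window and were not measured as binding sites.

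Most genes of cholesterol synthesis had lower mRNA in heme-treated BMDMs, and the genes around the SREBP2 precursor moved in opposite directions. Of the 29 genes, 19 fell (65.5%) and 5 rose (17.2%), while 5 did not pass the test (edgeR's quasi-likelihood test, Benjamini-Hochberg adjusted p under 0.05). Of all 12433 tested genes, 30.8% fell and 31.7% rose, 62.5% in all. The 5 that rose were Ggps1, Scap, Insig2, Npc1 and Soat1. The 5 that did not pass were Sqle, Cyp51, Msmo1, Hsd17b7 and Mbtps2. The median log2 fold change of the 29 was -0.76, against 0.00 (0.0041 before rounding) for all tested genes. At least a halving of the level, a log2 fold change of -1 or less, was found for 7 of the 29, and for 8.42% of all genes. No gene of the group rose to the same extent, where 11.1% of all genes did. Against a log2 fold change of 0.5 in place of no change, 13 of the 29 fell and 1, Insig2, rose, with 12.2% and 14.6% of all genes. Scaled by library size alone, 21 of the 29 fell and 2 rose, and the rises among the calls of all genes went from 50.7% to 30.7%.

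**Figure D1:**
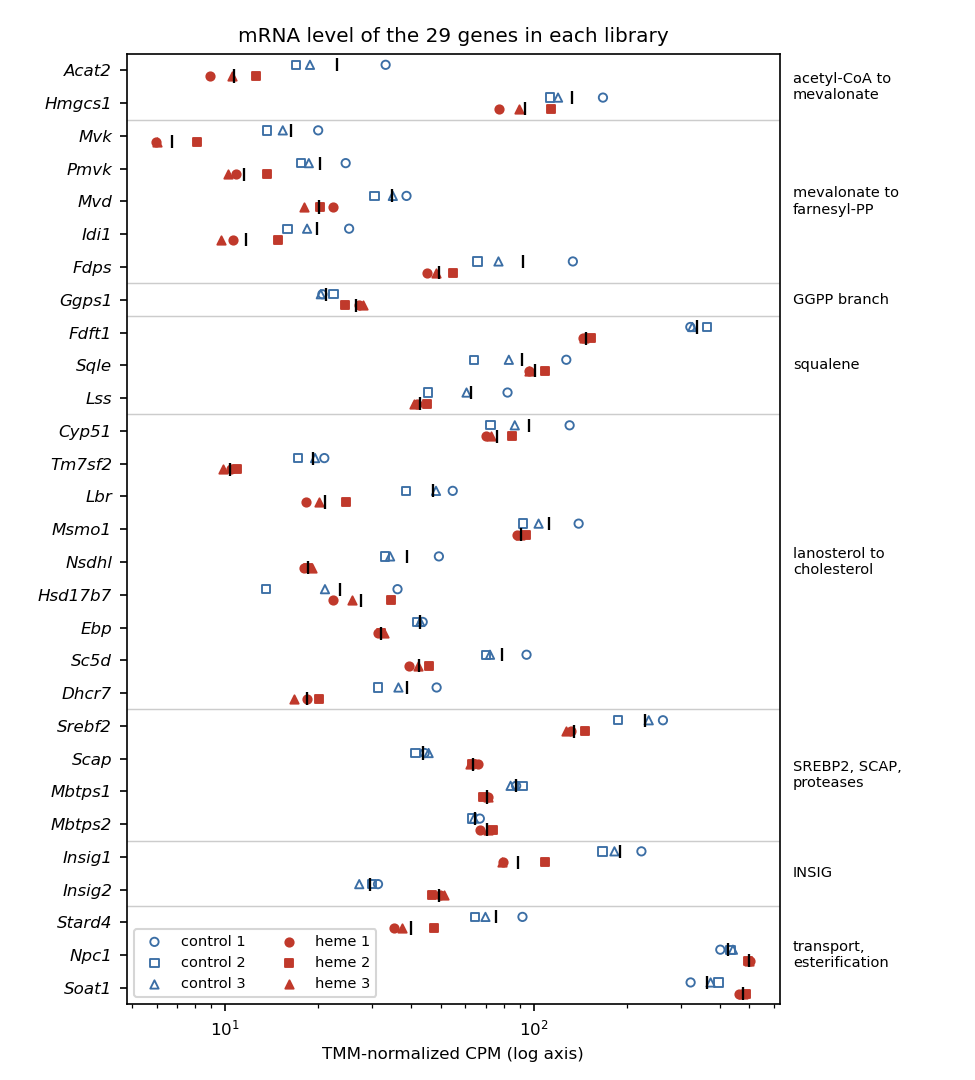
TMM-normalized CPM (log axis; counts divided by TMM-adjusted library size) of the 29 genes in 3 control (open blue) and 3 heme (filled red) libraries, in pathway order. Symbols mark the replicate numbers and black lines the group means; in 24 of the 29 genes the heme points lie clear of the control points.

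All levels that follow are TMM-normalized CPM. For 24 of the 29 genes (82.8%) the 3 heme libraries lay entirely above or below the 3 control libraries, and 68.8% of all tested genes did so. With 3 libraries in each group an exact two-sided permutation test of a single gene cannot give less than p = 0.1, so the adjusted p-values come from the fit across all genes. In bulk RNA, fewer cells of a type and less RNA per cell cannot be told apart. The counts behind the levels ran from 164 (Mvk in a heme library) to 14939 (Npc1) per library.

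**Figure D2:**
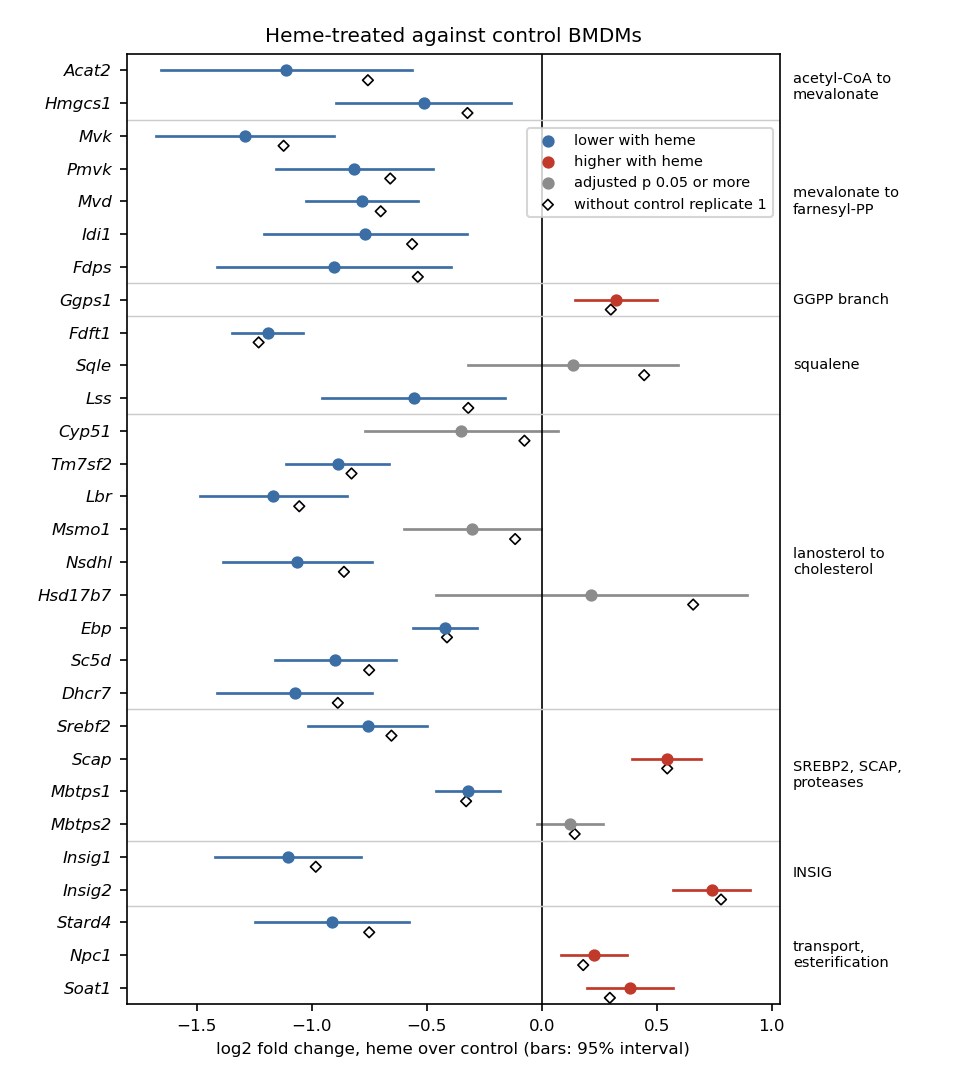
Log2 fold changes (heme over control) of the 29 genes in pathway order, with 95% intervals (edgeR). Open diamonds are the estimates without control replicate 1; the estimates run from -1.29 for Mvk to 0.74 for Insig2, and the diamonds of Sqle and Hsd17b7 lie at 0.45 and 0.66.

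The 2 genes that lead from acetyl-CoA toward mevalonate both fell. Acat2, the cytosolic thiolase that joins acetyl-CoA units, measured 33.1, 16.98 and 18.8 CPM in the control libraries and 8.92, 12.6 and 10.6 CPM in the heme libraries. The highest control was well above the other controls, yet every heme library lay below every control (log2 fold change -1.11, standard error 0.24, adjusted p = 0.00296). Without that library, control replicate 1, the log2 fold change was -0.76 and the gene still passed. Hmgcs1, the HMG-CoA synthase of the cytosol, measured 168, 113 and 119.9 CPM with albumin alone and 77.2, 114 and 89.8 CPM with heme-albumin. Here the groups overlapped at heme replicate 2, and the fall was smaller (log2 fold change -0.51, standard error 0.17, adjusted p = 0.0238). The call was lost without heme replicate 1 (-0.39) or without heme replicate 3 (-0.48). Without control replicate 1 the log2 fold change was -0.32 and the call just held (adjusted p = 0.047).

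All 5 enzymes from mevalonate to farnesyl diphosphate fell, and in each the groups lay apart. Mvk (mevalonate kinase, chr5:114444269-114460591 of GRCm38) measured 20.03, 13.6 and 15.4 CPM in controls and 5.99, 8.14 and 6.02 CPM after heme. It fell to 40.9% of the control level (log2 fold change -1.29, standard error 0.17, adjusted p = 0.000138). This was the largest fall of the 29 genes with all libraries, but not without control replicate 1, where Mvk had -1.12 and Fdft1 -1.23. The counts of Fdft1 may hold reads of Ctsb, a gene that overlaps it, as described below. Pmvk, the next kinase, measured 24.6, 17.6 and 18.7 CPM in the control libraries and 10.8, 13.6 and 10.2 CPM in the heme libraries (log2 fold change -0.81, adjusted p = 0.00115). Mvd, the decarboxylase that yields isopentenyl diphosphate, measured 38.7, 30.5 and 34.95 CPM with albumin alone and 22.3, 20.3 and 17.97 CPM with heme-albumin (log2 fold change -0.78, adjusted p = 0.000184). These consecutive enzymes thus ended between 40.9% and 58.2% of their control levels. Idi1, the isopentenyl diphosphate isomerase, measured 25.2, 15.9 and 18.4 CPM in controls and 10.6, 14.8 and 9.68 CPM after heme (log2 fold change -0.77, adjusted p = 0.00699). Fdps, the farnesyl diphosphate synthase, measured 134, 65.7 and 76.9 CPM in the control libraries and 44.99, 54.8 and 48.2 CPM in the heme libraries (log2 fold change -0.90, adjusted p = 0.00639). Control replicate 1 was the highest library for both, and without it Fdps had a log2 fold change of -0.54 and Idi1 of -0.56, and both still passed. Of the exonic bases of Fdps, 26.7% are shared with Gm43738, an annotated gene on the same strand that had similar counts and a log2 fold change of -0.81.

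Ggps1, which extends farnesyl diphosphate to the geranylgeranyl diphosphate used to anchor small GTPases, went the other way. It measured 20.7, 22.4 and 20.4 CPM in the control libraries and 27.1, 24.5 and 27.9 CPM in the heme libraries. Every heme library was above every control, with a small difference (log2 fold change 0.32, standard error 0.08, adjusted p = 0.00575). Scaled by library size alone it had a log2 fold change of 0.10 and was not called, and 5.44% of its exonic bases are shared with Arid4b on the other strand, which had a log2 fold change of 0.31.

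At the squalene steps, the enzymes on either side of Sqle fell and Sqle did not pass the test. Fdft1 (squalene synthase) measured 322, 364 and 326 CPM in controls and 145, 153 and 145 CPM after heme (log2 fold change -1.19, standard error 0.07, adjusted p = 5.46e-07). The exons of Fdft1 share 774 bases (18.3% of its own) with those of Ctsb, the cathepsin B gene on the other strand, which had 10580.0 to 18340.0 CPM and a log2 fold change of -0.63. Fdft1 stood at 1.99%, 1.98% and 1.99% of the Ctsb level in the controls and at 1.31%, 1.44% and 1.3% after heme, and how far Ctsb reads entered its counts was not tested. Without Fdft1, the summed level of the 18 other enzymes of synthesis (Ggps1 left out) was 992.2 ± 249.1 CPM in controls and 684.4 ± 64.9 CPM after heme (SD, n = 3).

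Sqle, the squalene monooxygenase and a rate-limiting enzyme of the pathway, measured 128, 64.2 and 83.05 CPM in the control libraries and 96.8, 109 and 96.6 CPM in the heme libraries. The heme libraries lay within the wide range of the controls (log2 fold change 0.14, 95% interval -0.32 to 0.59, adjusted p = 0.579). Without control replicate 1 it was called higher (0.45), and without control replicate 2 or when scaled by library size alone its sign turned (-0.075 and -0.090, not called). Lss, the lanosterol synthase that closes the sterol rings, measured 82.2, 45.4 and 60.6 CPM with albumin alone and 41.8, 45.2 and 40.97 CPM with heme-albumin. It fell (log2 fold change -0.56, standard error 0.18, adjusted p = 0.0199), with control replicate 2 just above the highest heme library, and the call was lost without heme replicate 1 (-0.54) or without heme replicate 3 (-0.53). Without control replicate 1 its log2 fold change was -0.32 (adjusted p = 0.0269).

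Of the 9 enzymes that turn lanosterol into cholesterol, 6 fell and none rose. Lbr and Tm7sf2 encode reductases that act on the same double bond of the sterol ring, and Lbr also anchors chromatin at the nuclear lamina. Lbr measured 54.6, 38.6 and 48.2 CPM in the control libraries and 18.2, 24.7 and 20.2 CPM in the heme libraries (log2 fold change -1.17, standard error 0.14, adjusted p = 7.83e-05). Tm7sf2 measured 20.97, 17.2 and 19.6 CPM in controls and 10.5, 10.9 and 9.87 CPM after heme (log2 fold change -0.89, adjusted p = 4.39e-05). Both were apart between the groups. Lbr shares 9.24% of its exonic bases with Dnah14 on the other strand (log2 fold change -1.39) and Tm7sf2 12.1% with Vps51 on the same strand (-0.38). Nsdhl, which with Msmo1 and Hsd17b7 removes the methyl groups from the sterol ring, measured 49.3, 32.97 and 34.2 CPM with albumin alone and 18.1, 18.6 and 19.1 CPM with heme-albumin (log2 fold change -1.06, standard error 0.14, adjusted p = 0.000155). Sc5d, a desaturase, measured 94.8, 69.9 and 72.2 CPM in the control libraries and 39.4, 45.6 and 42.2 CPM in the heme libraries (log2 fold change -0.90, adjusted p = 0.000122). Dhcr7, which reduces 7-dehydrocholesterol in the final part of the route, measured 48.5, 31.4 and 36.5 CPM in controls and 18.4, 20.1 and 16.7 CPM after heme (log2 fold change -1.07, standard error 0.15, adjusted p = 0.00019). The heme libraries of these genes were close to each other and all under the lowest control. Ebp, the sterol isomerase, fell less, from 42.8 ± 0.897 to 32.00 ± 0.666 CPM (mean ± SD, n = 3), but with little spread (log2 fold change -0.42, standard error 0.06, adjusted p = 0.000242).

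The 3 enzymes that did not pass the test were Cyp51, Msmo1 and Hsd17b7. Cyp51, the lanosterol demethylase, stood at 96.7 ± 30.4 and 75.95 ± 8.19 CPM (SD, n = 3; log2 fold change -0.35, 95% interval -0.77 to 0.07, adjusted p = 0.13). Msmo1, the methylsterol monooxygenase, stood at 112 ± 24.7 and 90.9 ± 3.21 CPM (SD, n = 3; log2 fold change -0.30, 95% interval -0.60 to -0.0043, adjusted p = 0.072). Hsd17b7, the ketoreductase of the same step, measured 36.2, 13.6 and 21.1 CPM in the control libraries and 22.3, 34.6 and 25.7 CPM in the heme libraries. Its controls spread more widely than its heme libraries (log2 fold change 0.22, 95% interval -0.46 to 0.89, adjusted p = 0.553). These calls turned on single control libraries and on the scaling. Without control replicate 2, Cyp51 and Msmo1 were called lower (-0.53 and -0.43) and Hsd17b7 turned to -0.073, and without control replicate 1 Hsd17b7 was called higher (0.66). Without control replicate 1, Cyp51 and Msmo1 had log2 fold changes of only -0.075 and -0.12 (adjusted p = 0.538 and 0.186 in edgeR's quasi-likelihood test). Scaled by library size alone, Cyp51 and Msmo1 were called lower (-0.57 and -0.53) and Hsd17b7 had -0.011. Msmo1 was also called lower with upper-quartile scaling and with no filter on low counts.

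Among the regulators, the gene of the transcription factor and the sterol-responsive Insig1 fell, while Insig2 and Scap rose. Srebf2 (chr15:82147181-82205379), the SREBP2 gene, measured 262, 188 and 236 CPM in the control libraries and 132, 146 and 127 CPM in the heme libraries. Every heme library was under the lowest control, and the level fell to 59.2% (log2 fold change -0.76, standard error 0.11, adjusted p = 0.000325). Insig1 (chr5:28071363-28078662), itself a target of SREBP2, measured 223, 167 and 183 CPM with albumin alone and 79.4, 108 and 79.1 CPM with heme-albumin (log2 fold change -1.10, standard error 0.14, adjusted p = 0.000106). Insig2 (chr1:121304353-121332589), its paralog with the same retention function, measured 31.3, 29.9 and 27.2 CPM in controls and 49.5, 46.9 and 51.2 CPM after heme (log2 fold change 0.74, standard error 0.07, adjusted p = 2.16e-05). The groups did not overlap for either paralog. Per kilobase of exon, Insig1 stood at 61.8 CPM in controls and 28.8 CPM after heme, and Insig2 at 8.49 and 14.2 CPM, so Insig1 kept the higher level in both groups. Scap, the escort, measured 44.3, 41.4 and 45.6 CPM in the control libraries and 66.2, 63.1 and 61.96 CPM in the heme libraries (log2 fold change 0.54, standard error 0.07, adjusted p = 7.44e-05), and 13.2% of its exonic bases are shared with 5830462I19Rik on the other strand, which had a log2 fold change of 0.39.

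Of the protease genes, Mbtps1 fell by a small amount and Mbtps2 did not pass the test. Mbtps1, the S1P gene, measured 87.7, 91.96 and 84.2 CPM in controls and 71.4, 68.5 and 71.3 CPM after heme (log2 fold change -0.32, adjusted p = 0.0014). Mbtps2, the S2P gene, measured 66.9, 63.1 and 64.03 CPM with albumin alone and 66.98, 73.5 and 70.9 CPM with heme-albumin. The lowest heme library of Mbtps2 was only just above the highest control, and the gene did not pass the test (log2 fold change 0.12, 95% interval -0.02 to 0.27, adjusted p = 0.116), and scaled by library size alone its value was -0.098. It shares 28.4% of its exonic bases with Yy2 on the same strand, a gene with far fewer counts and a log2 fold change of -0.45.

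Of the genes of sterol movement and storage, Stard4 fell and Npc1 and Soat1 rose. Stard4, a soluble carrier of cholesterol between membranes and a known SREBP2 target, measured 91.95, 64.4 and 69.8 CPM in the control libraries and 35.3, 47.7 and 37.4 CPM in the heme libraries (log2 fold change -0.91, standard error 0.15, adjusted p = 0.00051). Npc1, which exports cholesterol from the lysosome, measured 402, 434 and 442 CPM with albumin alone and 503, 494 and 497 CPM with heme-albumin (log2 fold change 0.23, adjusted p = 0.0115). Soat1, the enzyme that esterifies cholesterol for storage, measured 322, 397 and 374 CPM in controls and 463, 488 and 476 CPM after heme (log2 fold change 0.38, adjusted p = 0.0028). In all 3 genes the groups lay apart. The rises were small. Scaled by library size alone, which moved the median of all genes by -0.22, Npc1 had a log2 fold change of 0.00 (0.0046 before rounding) and Soat1 of 0.16, and neither passed. Npc1 shares 4.52% of its exonic bases with Rmc1 on the other strand, which had a log2 fold change of 1.04.

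The enzymes varied together between libraries of the same group. Control replicate 1 was the highest control for 18 of the 19 synthesis enzymes (Ggps1 left out) and for 23 of the 29 genes, whereas it was the highest control for 37.7% of all tested genes. The exception among the enzymes was Fdft1. In the enzymes it stood a median of 0.51 above the mean of the other controls on the log2 scale, and over all genes 0.00 (-0.0038 before rounding). Heme replicate 2 was the highest heme library for 16 of the 19 enzymes and 21 of the 29 genes, against 36.9% of all tested genes, with a median of 0.19 in the enzymes. The summed level of the 19 enzymes was 1593, 1157 and 1238 CPM in controls and 780.5, 910.9 and 804.6 CPM after heme. No heme library reached the lowest control. Without control replicate 1, the median log2 fold change of the 29 genes was -0.54, 19 fell and 7 rose, the added ones being Sqle and Hsd17b7.

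**Figure D3:**
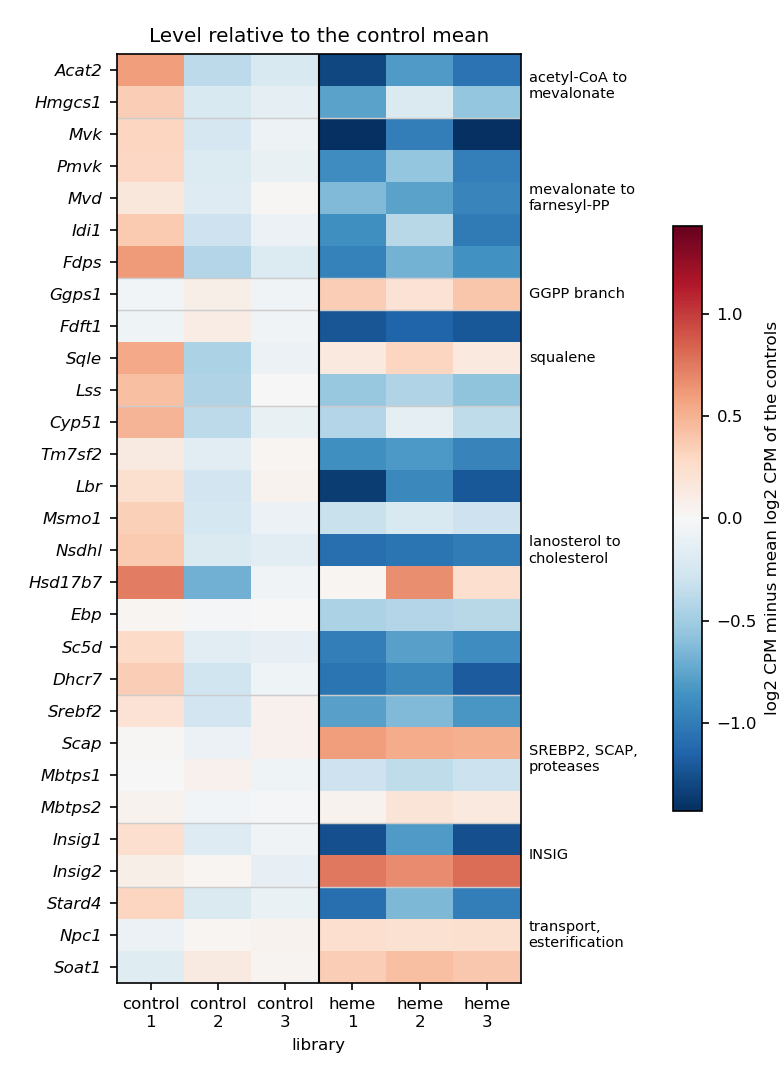
Level of each of the 29 genes in each library, as log2 CPM minus the mean log2 CPM of the 3 controls (red above, blue below). The column of control replicate 1 is redder than those of the other controls in the synthesis enzymes, and the heme columns are blue for every enzyme other than Sqle, Hsd17b7 and Ggps1 and red for Insig2, Scap, Npc1 and Soat1.

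The summed level of cell cycle genes ordered the libraries in the same way, though single genes did not all do so. The summed level of 12 cell cycle genes was 1372, 867.8 and 1091 CPM in controls and 651.2, 803.7 and 726.3 CPM after heme. Of the 12, 8 fell (66.7%, against 30.8% of all tested genes), 1 rose (8.33%, against 31.7%) and 3 were not called. Mki67, the Ki-67 proliferation antigen, had a log2 fold change of -1.65 and measured 267.3, 204.7 and 285.5 CPM in controls, highest in replicate 3. Mcm2, a replication licensing factor, measured 65.2, 21.8 and 30.9 CPM in the control libraries and 22.5, 28.5 and 24.8 CPM in the heme libraries. Mcm2 did not pass edgeR's quasi-likelihood test (log2 fold change -0.64, adjusted p = 0.116). Genes listed as markers of other myeloid cells also differed with the treatment. Of 10 tested neutrophil markers 9 rose (90.0%, against 31.7% of all tested genes) and 1 fell (10.0%, against 30.8%). The summed level of the list was 87.1 to 154 CPM in controls and 1385 to 1531 CPM after heme. Mmp8, a collagenase gene, made up 87.5% to 90.9% of the heme sum, and without it the sum was 58.3 to 118.0 CPM in controls and 130.3 to 173.3 CPM after heme. The study counts Mmp8 among the matrix remodeling genes that were high in heme-exposed macrophages of its spheroids, and it identified those macrophages by Ptprc expression. Which cells carried Mmp8 here was not tested. The neutrophil marker that fell was Csf3r (log2 fold change -1.08). Csf3r measured 50.8, 105.9 and 68.9 CPM in controls and 32.9, 41.8 and 31.9 CPM after heme. It thus made up most of the control sum without Mmp8, and that sum understates the rise of the other neutrophil markers. The median log2 fold change of the 10 tested neutrophil markers was 3.47. Of 8 monocyte markers 7 rose (87.5%, against 31.7%) and 1 fell (12.5%, against 30.8%), the latter being Ccr2 (log2 fold change -0.90). Their sums were 40.0 to 44.9 CPM in controls and 257 to 286 CPM after heme. Vcan, a proteoglycan gene, made up 44.5% to 49.8% of the heme sum. The granule gene Elane had no count in any control and 2.73, 3.71 and 5.17 CPM after heme. Macrophage genes were abundant in every library. Their sum over 9 markers was 32060.0 to 37870.0 CPM in controls and 36520.0 to 39810.0 CPM after heme, mostly from Lyz2. Without Lyz2 it was 6891 to 7621 CPM in controls and 5528 to 5836 CPM after heme. Of the 9, 6 fell (66.7%, against 30.8%) and 1 rose (11.1%, against 31.7%). Adgre1, the F4/80 gene, and Csf1r, the M-CSF receptor, had log2 fold changes of -0.60 and -0.61. Erythroid, dendritic cell and lymphoid markers summed to at most 1.65, 1.67 and 0.697 CPM. Erythroid and lymphoid lists held 2 of 8 and 3 of 7 genes at 0 in all libraries, and the dendritic cell list none. The part of the cell cycle genes and of these markers in the sterol gene differences was not tested.

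Because the enzymes moved together between libraries, ratios of neighbouring genes within a library were also formed, which no scaling changes. The 5 pairs were chosen after the values had been seen, and adjustment over the 5 does not cover that choice. The log2 ratio of Sqle to Lss, the next enzyme, was 0.63, 0.50 and 0.46 in controls and 1.21, 1.27 and 1.24 after heme. Its difference of 0.71 exceeded the SD within the groups (0.09 and 0.03). The log2 ratio of Hsd17b7 to Nsdhl, its partner in demethylation, was -0.45, -1.28 and -0.70 in controls and 0.30, 0.90 and 0.43 after heme, and its groups did not overlap either. That of Insig1 to Insig2 was 2.83, 2.48 and 2.75 in controls and 0.68, 1.21 and 0.63 after heme, a difference of -1.85. The ratio of Scap to Srebf2 was -2.56, -2.18 and -2.37 in controls and -1.001, -1.22 and -1.03 after heme on the same scale. Only Hsd17b7 to Ebp overlapped between the groups, at -0.27, -1.63 and -1.03 in controls and -0.49, 0.11 and -0.34 after heme. The exact two-sided permutation test gave p = 0.1, the smallest it can give here, for the first 4 pairs and p = 0.3 for the fifth (adjusted over the 5 pairs, 0.125 and 0.3), and 3 libraries against 3 cannot pass the threshold.

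**Figure D4:**
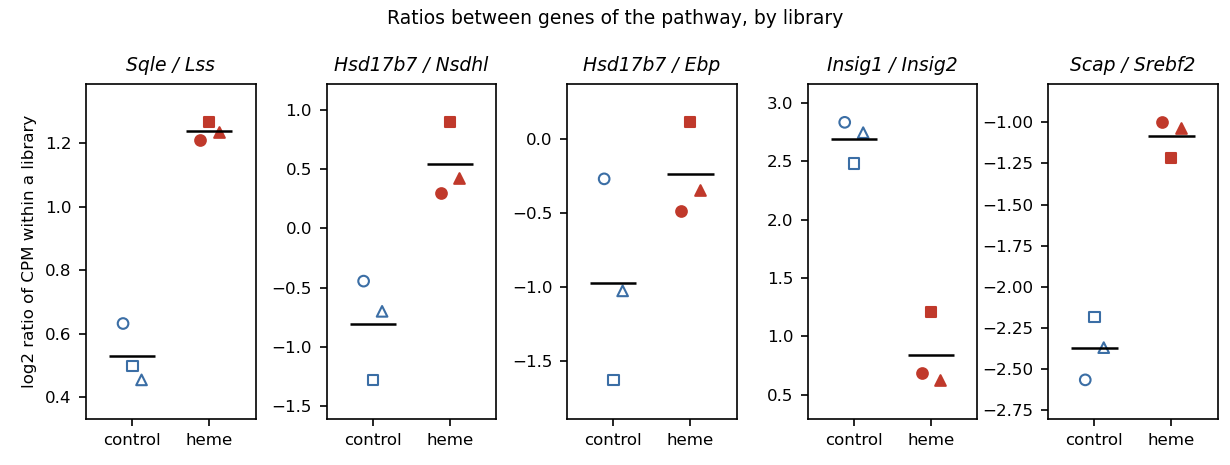
Log2 ratio of the CPM of paired genes within each library, for 3 control (open blue) and 3 heme (filled red) libraries, with the group means as lines. The groups lie apart for Sqle to Lss, Hsd17b7 to Nsdhl, Insig1 to Insig2 and Scap to Srebf2 and overlap for Hsd17b7 to Ebp; each panel has its own range.

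Genes next to the pathway were counted against the same shares of all tested genes, 30.8% lower and 31.7% higher. In 7 further lists with 70 genes, 67 were tested, of which 26 fell (38.8%) and 18 rose (26.9%), with 23 not called, and their median log2 fold change was -0.03, so over all 7 lists the counts lay near those shares. With library sizes alone, 34 fell and 10 rose, but then 5814 of all 12433 tested genes fell and 2580 rose. The fatty acid branch, which is controlled mainly by the related factor SREBP1, had 9 of 13 genes lower (69.2%, against 30.8% of all genes) and 2 higher (15.4%, against 31.7%). Scd1, the stearoyl-CoA desaturase, measured 329, 196 and 279 CPM in controls and 14.04, 13.7 and 15.96 CPM after heme (log2 fold change -4.20, standard error 0.18, adjusted p = 1.03e-07). None of the 29 genes fell by more than 1.29 on this scale. Fads2, a desaturase of polyunsaturated fatty acids, fell as well (log2 fold change -1.64, adjusted p = 0.000192), and Me1, a malic enzyme that supplies NADPH and also a known NRF2 target, rose from 32.9 ± 4.17 to 161 ± 5.38 CPM (mean ± SD, n = 3; log2 fold change 2.29). Srebf1, the SREBP1 gene, named here after its values were seen, fell from 185 ± 20.5 to 107 ± 4.10 CPM (mean ± SD, n = 3; log2 fold change -0.79, adjusted p = 3.51e-05).

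Of 6 tested genes of other SREBP2 targets and related enzymes, 5 fell (83.3%, against 30.8% of all genes) and none rose. Acat1, the mitochondrial thiolase, had a log2 fold change of -1.28, Pcyt2, of phosphatidylethanolamine synthesis, of -0.79 and Tmem97, a sterol-responsive membrane protein that binds NPC1, of -0.45. Among 9 genes that control the stability of the reductase and of INSIG or hold the SREBP complex, 2 fell (22.2%) and 4 rose (44.4%), where 30.8% and 31.7% of all genes did. Erlin2 had -0.68 and Paqr3, which tethers SCAP to the Golgi, -0.55, while March6, a ubiquitin ligase that targets squalene monooxygenase, had 0.50. Of 13 genes that use isoprenoids, 2 fell (15.4%, against 30.8% of all genes) and 4 rose (30.8%, near the 31.7% of all genes), with 7 not called. The called ones include Rabggtb, a subunit of the Rab prenyltransferase (0.63), Nus1, of dolichol synthesis (0.53), and Pggt1b, a subunit of another prenyltransferase (-0.62).

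Of 7 lipoprotein uptake genes, 3 rose (42.9%, against 31.7% of all genes) and 1 fell (14.3%, against 30.8%). Lrp8, an apolipoprotein E receptor, measured 70.1, 37.1 and 49.9 CPM in the control libraries and 104, 119.8 and 106 CPM in the heme libraries (log2 fold change 1.07, standard error 0.19, adjusted p = 0.00081), and Lrpap1, the chaperone of this receptor family, had a log2 fold change of 0.54. Mylip, a ubiquitin ligase that degrades lipoprotein receptors and is induced by LXR, had one of -0.86. In intracellular sterol movement, 4 of 13 genes fell and 4 rose (30.8% each), shares like those of all genes (30.8% and 31.7%). Soat2, the second esterifying enzyme, rose from 0.235 ± 0.0646 to 3.41 ± 0.165 CPM (mean ± SD, n = 3; log2 fold change 3.84, adjusted p = 7.3e-07). Npc2, which hands cholesterol to NPC1 inside the lysosome, fell from 1026 ± 64.4 to 596 ± 12.8 CPM (mean ± SD, n = 3, log2 fold change -0.78). Npc1 went the other way by only 0.23, and by 0.0046 with library sizes alone. Gramd1a, which carries sterol from the plasma membrane to the endoplasmic reticulum, had -0.70.

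Of 6 tested genes of oxysterols, LXR and efflux, 3 fell and 1 rose, with 2 not called, where 30.8% and 31.7% of all genes fell and rose. Abca1, the exporter that loads cholesterol onto apolipoprotein A-I, measured 346, 517 and 559 CPM in controls and 106, 138 and 119 CPM after heme (log2 fold change -1.97, standard error 0.17, adjusted p = 8.38e-06). Every heme library was far under the lowest control. Cyp27a1, which makes an oxysterol, had a log2 fold change of -1.51, and Ch25h, another oxysterol-forming enzyme, of 1.33 at levels under 1 CPM. The LXR genes Nr1h2 and Nr1h3, named after their values were seen, had -0.08 and 0.08 and did not pass the test (adjusted p = 0.337 and 0.672).

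**Figure D5:**
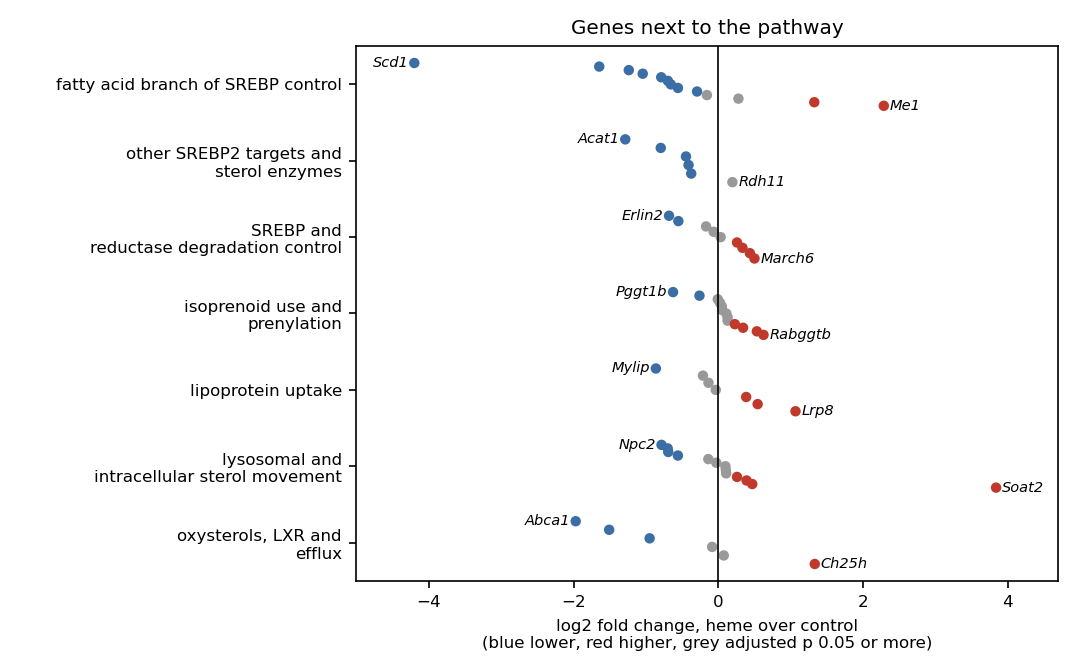
Log2 fold changes (heme over control) of the 67 tested genes of 7 lists next to the pathway (edgeR). Each point is a gene, blue where it fell, red where it rose and grey where it did not pass the test, and the lowest and highest gene of each list are named; the values run from -4.20 for Scd1 to 3.84 for Soat2.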

How the data were processed

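Bulk RNA-Seq of 3 control and 3 heme-treated BMDM cultures was used. The authors deposited read counts per Ensembl gene, whole numbers without normalization, made on GRCm38.p5 with STAR 2.7.0 and featureCounts, as the submitters' processing notes list them. For the annotation release, strand setting and read filters, nothing was stated in these sources. Without a known strand setting, reads from overlapping genes on opposite strands cannot be told apart, and 10 of the 29 genes share exonic bases with another counted gene. Totals were 27201038 to 32994595 counts per library. Symbols, positions and exon lengths came from GENCODE M21.

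Counts were analysed in R 4.3.3 with edgeR 4.0.16: filterByExpr (minimum count 10), TMM, then glmQLFit and glmQLFTest fitted on condition alone, and Benjamini-Hochberg adjustment over all 12433 tested genes at 0.05. Intervals are 95% and come from the same test. limma 3.58.1 (voom) and DESeq2 1.42.0 were alternatives, beside other scalings and filters, glmTreat at a log2 threshold of 0.5, the replicate number as a block, and leaving out each library. Deviations from the group means of same-numbered libraries did not go together (r = -0.0998, -0.142 and -0.0683). The procedure was tested on simulated counts. Each of the 29 genes was named, with values per library for the 14 called genes of largest change and for every regulator and transport gene; from each further list, up to 3 called genes with the largest change and 1 of the opposite direction; from marker lists, at most 3 genes. The genes and lists were chosen with earlier results of these data known. From the further lists, Faxdc2 was not analysed here, Cyp7b1 was below the filter and 1 gene is not reported here. Exact permutation tests used scipy.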

Additional observations from a re-analysis of the deposited data

How the results depend on the processing

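For the 29 genes, 405 of 435 single-gene values under 15 alternatives kept their direction and their side of the threshold, and 14 genes did so in every alternative: Acat2, Mvk, Pmvk, Mvd, Fdft1, Tm7sf2, Lbr, Nsdhl, Sc5d, Dhcr7, Srebf2, Insig1, Insig2 and Stard4. None of the 15 addressed how far Ctsb reads entered the counts of Fdft1. Of the 30 other values, 17 no longer passed, 8 newly passed and 5 changed sign. Scaled by library size alone, which lowered the median of all genes to -0.22, 2 of the 29 genes rose and 21 fell, their median was -0.98, all genes split into 2580 higher and 5814 lower (30.7% higher, against 50.7%), and 10 neighbouring genes rose; Sqle, Hsd17b7 and Mbtps2 changed sign (-0.090, -0.011 and -0.098). Tested against a log2 fold change of 0.5, 1 of the 29 rose, 16 neighbouring genes fell and 6 rose, and 1517 genes fell and 1816 rose; this test is stricter by construction. With each library left out in turn, 17 to 21 of the 29 fell and 5 to 7 rose, and their median ran from -0.88 to -0.54, the latter without control replicate 1. Sqle ran from -0.075 to 0.45 and Hsd17b7 from -0.073 to 0.66, changing sign without control replicate 2 and called higher without control replicate 1. Among the 19 genes that share no exonic bases with a counted gene, an alternative chosen after seeing the data, 14 fell and 2 rose. The replicate block left the counts at 19 and 5 and the median at -0.75, and changed no call of the 29; the libraries share only a number. DESeq2 and limma-voom also gave 19 and 5. The depth, at least 164 counts for each of the 29 genes in each library, was not low for any of them. The controls of Sqle, Hsd17b7 and Cyp51 spread widely.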
